A study of Mus musculus with 6 samples.

Results

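Klf2, Klf3, Klf6, Klf13, S1pr1, S1pr4, Foxo1, Foxp1 and Cd69, genes of the Klf2 circuit that governs the trafficking and quiescence of T cells, were measured by RNA sequencing in splenic invariant natural killer T (iNKT) cells. The 9 genes were taken by name from a deposited table of 48709 genes, and each name was found once. The labels describe 6 samples of flow-sorted mouse splenic NKT cells in the resting state, 3 with the genotype Gpx4 cKO and 3 WT. Gpx4 encodes a selenoenzyme that reduces lipid hydroperoxides and restrains ferroptosis, and the design asks how its loss alters these cells. No Cre driver, mouse age or pooling of animals is stated in the labels. The table names its 6 libraries by the numbers 18 to 23, which occur in no label, so 0 of 6 libraries could be given a genotype and no comparison of Gpx4 cKO with WT was made.

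Klf2 is a zinc finger transcription factor that holds T cells in quiescence and switches on S1pr1, the receptor by which lymphocytes follow sphingosine-1-phosphate (S1P) out of tissues. Foxo1 acts upstream of Klf2, and signalling through PI3K and Akt excludes Foxo1 from the nucleus. The membrane protein CD69 binds the S1P receptor and draws it off the cell surface, so that CD69-bearing cells stay in the tissue. Most iNKT cells settle in tissues rather than recirculate.

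Promoters are shown for 3 genes, because Klf2 and Klf6 had the widest spread between libraries and Klf13 one of the narrowest. Each stretch covers 250 bases before and 50 bases after a gene start of RefSeq, on build GRCm38.p6 and on the strand of the gene. Capitals mark CACCC boxes (CACCC), GC boxes (GGGCGG) and MEF2 sites (CTA and TAG with any 4 bases between), on either strand, and a GC box can overlap a CACCC box. The Klf2 stretch lies at chr8:72318812-72319111 on the plus strand, that of Klf6 at chr13:5861239-5861538 on the plus strand and that of Klf13 at chr7:63938866-63939165 on the minus strand.
Klf2: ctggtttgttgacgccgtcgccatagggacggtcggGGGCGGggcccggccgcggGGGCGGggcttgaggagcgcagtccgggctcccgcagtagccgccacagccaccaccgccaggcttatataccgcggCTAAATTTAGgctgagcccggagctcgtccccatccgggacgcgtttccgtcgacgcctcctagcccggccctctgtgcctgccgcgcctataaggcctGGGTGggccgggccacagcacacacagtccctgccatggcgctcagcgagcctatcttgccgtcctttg
Klf6: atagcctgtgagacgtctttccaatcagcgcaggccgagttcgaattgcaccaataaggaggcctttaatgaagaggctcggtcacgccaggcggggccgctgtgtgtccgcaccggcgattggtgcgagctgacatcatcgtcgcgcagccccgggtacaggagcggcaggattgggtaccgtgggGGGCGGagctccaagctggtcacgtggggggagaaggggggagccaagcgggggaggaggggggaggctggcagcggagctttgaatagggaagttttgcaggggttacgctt
Klf13: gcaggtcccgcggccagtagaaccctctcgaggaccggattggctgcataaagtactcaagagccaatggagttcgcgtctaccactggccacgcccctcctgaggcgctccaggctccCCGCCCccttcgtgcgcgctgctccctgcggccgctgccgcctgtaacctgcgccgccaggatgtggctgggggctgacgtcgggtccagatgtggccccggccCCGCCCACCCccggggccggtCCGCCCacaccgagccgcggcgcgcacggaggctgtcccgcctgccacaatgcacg
The Klf2 stretch held a MEF2 match that began 118 bases before the start, a CACCC box 19 bases before it and 2 GC boxes. A MEF2 match was found in 3.69% of 32851 RefSeq promoters of this length, a CACCC box in 57.5% and a GC box in 35.7%. MEF2 factors, downstream of the kinase ERK5, are known to act on Klf2. The Klf6 stretch held 1 GC box, and neither a CACCC box nor a MEF2 match lay within it. Klf13 had 3 GC boxes and 1 CACCC box. An AP-1 match (TGANTCA), found in 7.81% of all promoters, and a forkhead match (TGTTTAC), found in 3.65%, were absent from the 9 promoter stretches listed for 7 of the genes. S1pr1 and Cd69 have no promoter entry in the table used. A match is a run of letters and was not tested as a binding site.

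Library depth ran from 903524 exon reads in library 21 to 10122187 in library 19, an 11.2-fold range, so values in library 21 carry the widest counting error. Levels are given as CPM, exon reads per 1000000 on library sizes scaled by TMM, with 95% exact Poisson intervals that cover counting error only. Markers of the labelled cells were present: Zbtb16, which encodes the iNKT factor PLZF, lay between 245 and 357 CPM and Cd3e between 764 and 924 CPM. Across all 9042 genes with at least 200 reads, 71.6% varied beyond counting error (chi-square test of counts against library sizes, Benjamini-Hochberg adjusted p below 0.05). Of the 9 Klf2 circuit genes 7 did so, a share near that background. Their median ratio of highest to lowest CPM was 1.66, against 1.575 over all tested genes. A ratio of at least 2 was seen for 2 of the 9 genes, Klf2 and Klf6, and for 27.1% of all tested genes. Library 23 was the lowest for 4 of the 9, Klf3, S1pr4, Foxo1 and Foxp1, and for 21.9% of all tested genes. Library 19 was the lowest for 2 of the 9 (14% of tested genes) and the highest for 2, S1pr4 and Foxp1 (14.6%).

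**Figure D1:**
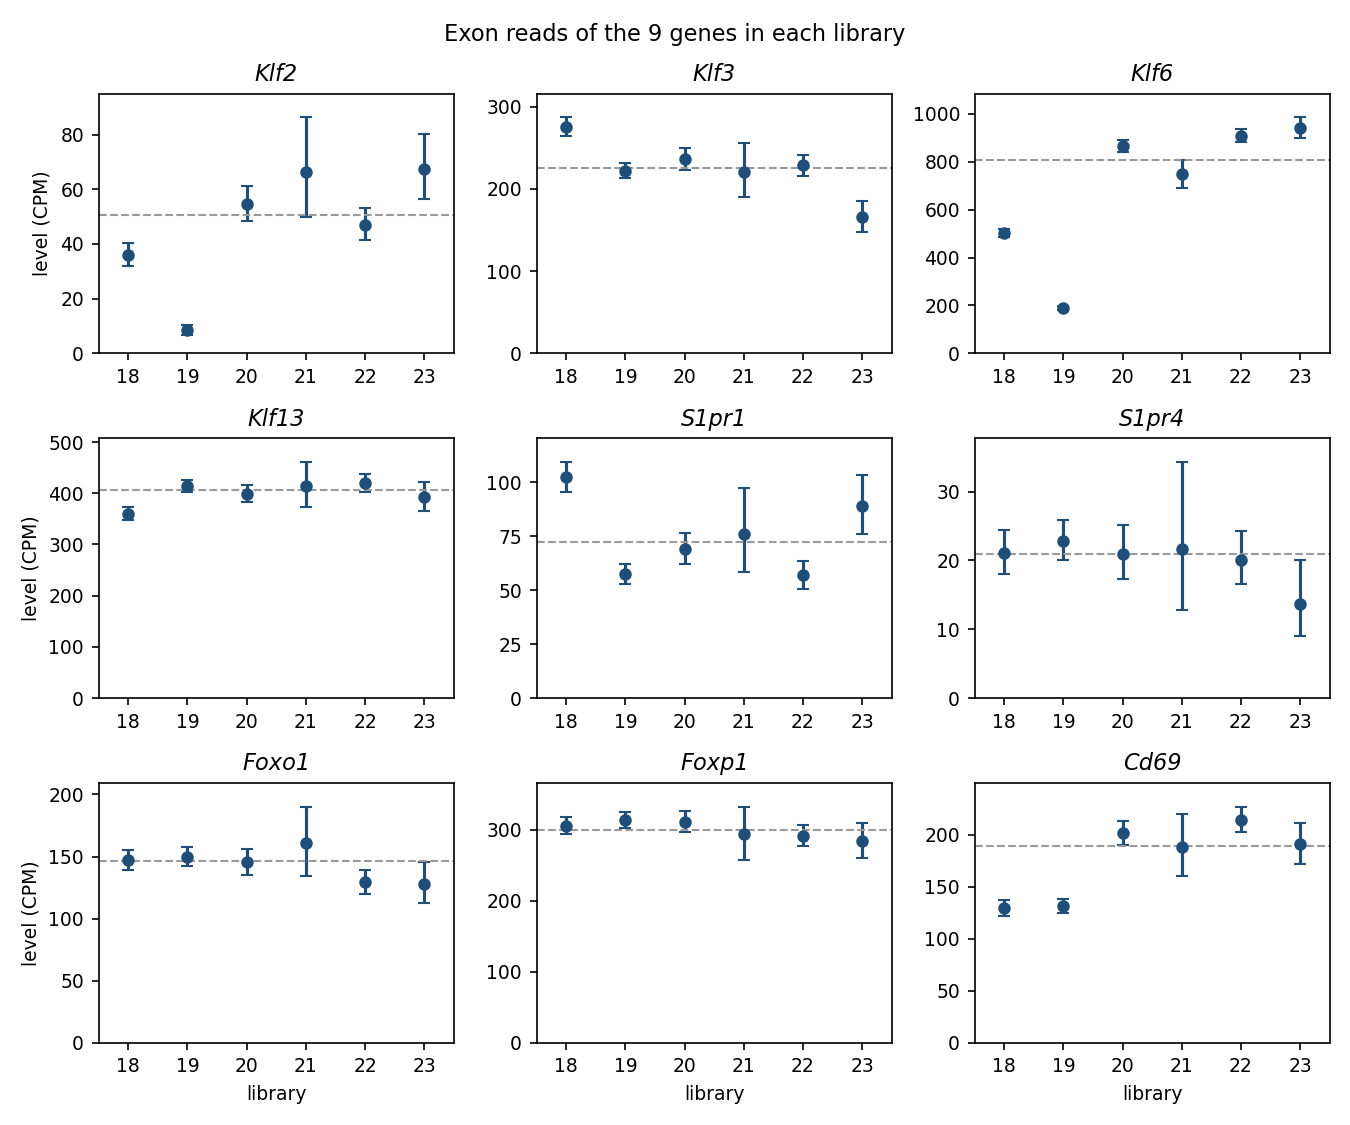
Levels of the 9 Klf2 circuit genes in each library, in CPM; points are single libraries, bars are 95% exact Poisson intervals and dashed lines mark the median over libraries. Klf2 and Klf6 are lowest in library 19, at 8.38 and 188 CPM, while Klf13, Foxo1 and Foxp1 stay close to their medians.

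Klf2 was the most variable of the 9 genes. Positions here and for the other genes are from GRCm38, and Klf2 (ENSMUSG00000055148) spans chr8:72319033-72321656, plus strand. Over libraries 18 to 23 the CPM read 35.9, 8.38, 54.5, 66.4, 46.9 and 67.5. Library 19 stood far below the rest, and library 18 was the next lowest. The 89 reads of library 19 gave an interval of 6.73 to 10.3 CPM, while library 18 held 31.9 to 40.2 CPM. The ratio of library 23 to library 19 was 8.05 (95% exact interval 6.10 to 10.7), and 2.76% of tested genes had a ratio at least as wide (adjusted p = 4.22e-79). In the order 23, 21, 20 and 22 no neighbours differed beyond counting error, although library 23 exceeded library 22 by 1.44-fold (1.15 to 1.79). Without library 19 the Klf2 ratio was 1.88.

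Klf6, a Krueppel-like factor with early-response behaviour in many cell types, had the highest median level per length of the 9 genes. Klf6 (ENSMUSG00000000078) spans chr13:5861489-5870393, plus strand. Libraries 18 to 23, taken in order, had 503, 188, 864, 747, 909 and 942 CPM. Libraries 18 and 19 were again the lowest pair. The ratio of library 23 to library 19 was 5.02 (4.71 to 5.35), and 4.84% of tested genes had a ratio at least as wide. Libraries 22 and 23 did not differ beyond counting error. Klf6 had 18249 reads in all and Klf2 had 1124, which is why the interval of the Klf6 ratio is narrower. Without library 19 the Klf6 ratio was 1.87.

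Klf3, a repressor that recruits CtBP, showed a smaller spread with another order. Klf3 (ENSMUSG00000029178) spans chr5:64803388-64832901, plus strand. The CPM by library, 18 through 23, was 276, 222, 236, 221, 229 and 166. Library 18 was highest and library 23 lowest, with the other 4 libraries lying within counting error of their neighbours. The ratio of library 18 to library 23 was 1.67 (1.48 to 1.88, adjusted p = 2.46e-20), and without library 23 the widest ratio was 1.25. The antisense gene Gm20033 overlaps Klf3 but had 25 exon reads in all, 0.326% of the number for Klf3.

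Klf13, known in T cells as an activator of the chemokine gene Ccl5, was among the steadiest. Klf13 (ENSMUSG00000052040) spans chr7:63886351-63938915, minus strand. Over libraries 18 to 23 the CPM read 360, 414, 399, 415, 420 and 393. Library 18 was the lowest, and the other 5 libraries did not differ from their neighbours in order beyond counting error. The ratio of 1.17 (1.10 to 1.23) passed the test (adjusted p = 1.08e-07), but without library 18 it was 1.07 with an adjusted p of 0.348.

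Of the other 13 Krueppel-like factors 9 had fewer than 200 reads in all, and the 4 that were tested all differed between libraries, against 71.6% of all tested genes. Klf4, a close relative of Klf2 with related targets, was measured at 24.9, 9.98, 45.6, 43.4, 47.1 and 51.7 CPM over libraries 18 to 23. Library 19 was the lowest for Klf4, which was 5.18-fold higher in library 23, but not for Klf7, Klf9 or Klf10. Klf7 had a median of 25.2 CPM, Klf9 12.7 CPM and Klf10 7.80 CPM. Klf14 had no read, which at the depth of library 21 allows up to 3.62 CPM. Per length, in the authors' RPKM (reads per kilobase of exon and 1000000 reads), Klf6 had a median of 81.0, Klf13 27.0, Klf2 12.4, Klf3 9.32 and Klf4 6.21. In library 19 Klf2 was at 2.29 RPKM, the lowest of the 9 genes in that library.

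**Figure D2:**
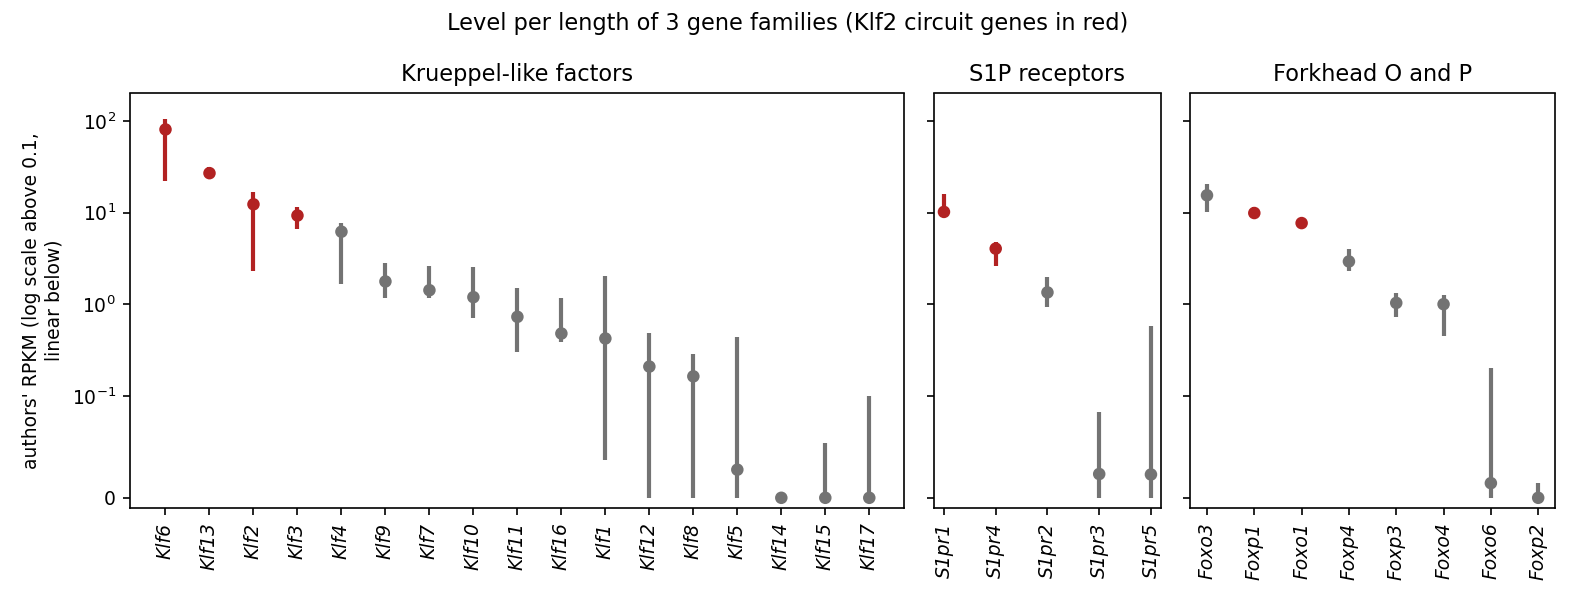
Level per length, in the authors' RPKM (log scale above 0.1, linear below), of the Krueppel-like factors, S1P receptors and forkhead O and P genes; points are medians over 6 libraries, lines run from the lowest to the highest library, and Klf2 circuit genes are red. Klf6 leads its family at a median of 81.0 RPKM, S1pr1 leads the S1P receptors at 10.2 RPKM, and Foxo3 lies above Foxp1 and Foxo1.

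S1pr1, the exit receptor under Klf2, did not follow the order of Klf2. S1pr1 (ENSMUSG00000045092) spans chr3:115710433-115715072, minus strand. Libraries 18 to 23, taken in order, had 102, 57.5, 69.1, 76.0, 56.9 and 89.1 CPM. Library 18 was highest and did not differ from library 23 beyond counting error (ratio 1.15, 0.973 to 1.36), although Klf2 was 1.88-fold higher in library 23. Libraries 19 and 22 were the lowest and differed by less than counting error, at a ratio of 1.01 (0.881 to 1.16), while Klf2 was 5.60-fold higher in library 22 than in library 19 (4.38 to 7.21). The S1pr1 ratio of library 18 to library 22 was 1.80 (1.58 to 2.06, adjusted p = 1.34e-31). Per length, the RPKM of S1pr1 was 4.16 times that of Klf2 in library 19 and 1.73 times in library 18, and between 0.695 and 0.801 times in libraries 20 to 23.

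S1pr4, a second S1P receptor of lymphocytes, was low, with 685 exon reads in all. S1pr4 (ENSMUSG00000044199) spans chr10:81497745-81500132, minus strand, and its exon length of 2388 bases equals that span. The CPM by library, 18 through 23, was 21.1, 22.8, 20.9, 21.7, 20.1 and 13.7. Library 23 was lowest, with 26 reads and an interval of 8.95 to 20.1 CPM. The spread did not pass the test (adjusted p = 0.281), and the ratio of 1.66 between libraries 19 and 23 had an interval of 1.11 to 2.60. Per length, S1pr1 exceeded S1pr4 in every library, by 1.98-fold in library 19 to 5.10-fold in library 23. No neighbouring libraries differed beyond counting error for S1pr4. Of the 3 other S1P receptors S1pr2 alone had enough reads for the test, with a median of 8.37 CPM and an adjusted p of 0.254.

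Cd69, the antagonist of S1PR1 at the cell surface and a marker of recent activation and tissue residence, split the libraries into a low pair and the other 4. Cd69 (ENSMUSG00000030156) spans chr6:129267325-129275436, minus strand. Over libraries 18 to 23 the CPM read 130, 131, 201, 188, 214 and 191. Libraries 18 and 19 lay within counting error of each other (ratio 1.01, 0.933 to 1.10), and so did neighbours among the other 4. The ratio of library 22 to library 18 was 1.65 (1.52 to 1.80, adjusted p = 9.22e-56). Cd69 exceeded S1pr1 per length in every library, by 1.95, 3.50, 4.48, 3.81, 5.79 and 3.29 times over libraries 18 to 23. This RPKM ratio was lowest in library 18 and highest in library 22.

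Foxo1, the forkhead factor upstream of Klf2, varied little. Foxo1 (ENSMUSG00000044167) spans chr3:52268336-52353221, plus strand. Libraries 18 to 23, taken in order, had 147, 150, 145, 161, 129 and 128 CPM. Libraries 22 and 23 were slightly below the rest. The ratio of library 21 to library 23 was 1.25 (1.01 to 1.55, adjusted p = 0.0108), and without library 22 the ratio was still 1.25 with an adjusted p of 0.212. Library 19, where Klf2 was lowest, had a Foxo1 level close to the median of 146 CPM.

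Foxp1, a forkhead factor that keeps naive T cells quiescent, had the narrowest spread. Foxp1 (ENSMUSG00000030067) spans chr6:98925338-99522721, minus strand. The CPM by library, 18 through 23, was 305, 313, 311, 293, 292 and 284. No neighbours in the order of levels differed beyond counting error. The ratio was 1.10 (1.01 to 1.21), 99.3% of tested genes had a ratio at least as wide, and the test was not passed (adjusted p = 0.117). On total exon reads without TMM scaling the ratio was 1.22 with an adjusted p of 0.000105. Gm20696, on the same strand and overlapping Foxp1, had 882 exon reads, 8.88% of the number for Foxp1, and how reads in the overlap were counted is not stated. Of the 6 other forkhead O and P genes, 4 were tested and 3 differed between libraries, a share near the 71.6% of all tested genes. These were Foxo3 (median 260 CPM), Foxp4 (33.1 CPM) and Foxp3 (8.82 CPM).

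**Figure D3:**
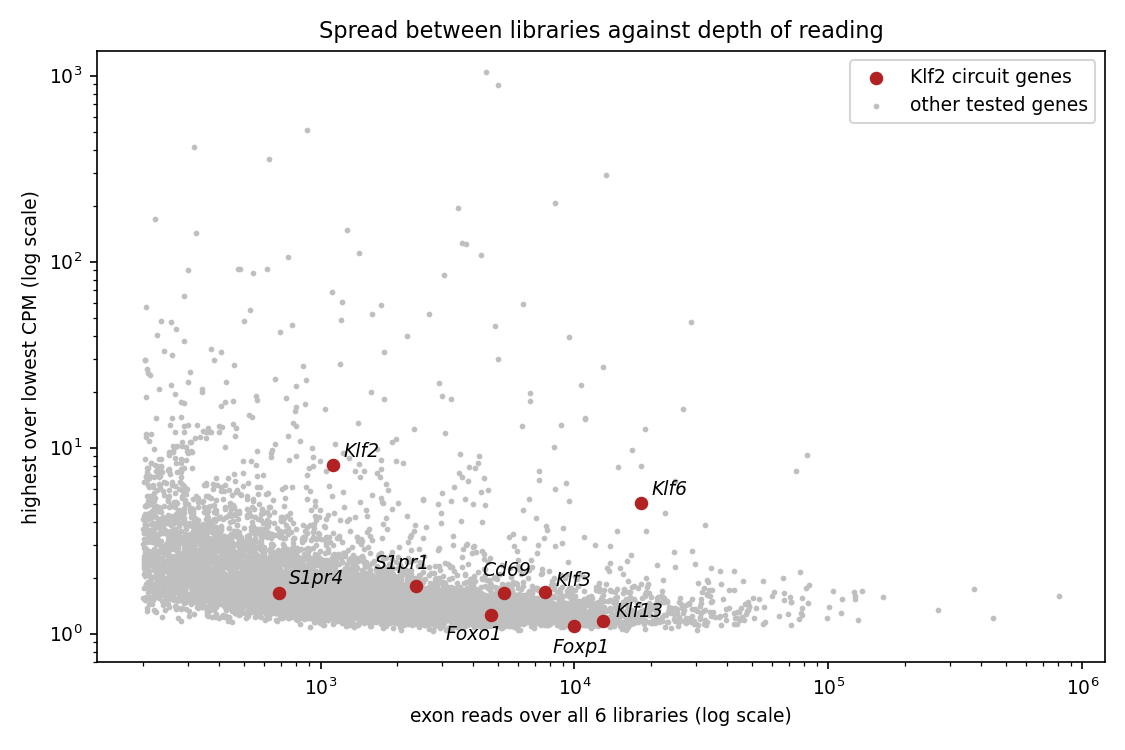
Ratio of highest to lowest CPM against exon reads over all libraries, both on log scales, for the tested genes; red points are the Klf2 circuit genes, and 58 tested genes with no read in some library are not drawn. Klf2 (8.05) and Klf6 (5.02) lie above most genes of like read number, and Foxp1 (1.10) and Klf13 (1.17) lie near the lower edge.

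Reads on introns, which can come from unspliced RNA, are given next, and their source was not tested. Per the table, introns held 46.8% to 52.1% of all reads on genes in a library. Among the 9 genes the median intron share ran from 0% for S1pr4 and 5.84% for S1pr1 to 76.9% for Foxo1 and 84.1% for Foxp1, both of which have long introns. The share differed between libraries beyond counting error for all 7 of the genes with at least 200 intron and 200 exon reads, and for 74.2% of the 7275 genes so tested (chi-square test, Benjamini-Hochberg adjusted). The median range between libraries was 12.3 percentage points for the 7 genes and 12.8 for all.

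Klf6 introns held 45.5%, 50.4%, 28.8%, 32.3%, 31.4% and 38.3% of its reads over libraries 18 to 23 (adjusted p = 2.20e-175). The share was highest in libraries 19 and 18, where the exon level was lowest. Per 1000000 intron reads of the library, Klf6 introns had 436, 213, 325, 353, 475 and 633 reads over the same libraries. Library 19 was lowest on introns as well, but the ratio of highest to lowest was 2.97 on introns against 5.02 on exons.

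Klf2 intron reads were few, with 94, 28, 68, 6, 61 and 55 over libraries 18 to 23. Their share of the reads was 24.0% in library 18 and 23.9% in library 19, and ranged from 9.84% in library 21 to 30.1% in library 23 (adjusted p = 0.00667). Without library 23 the adjusted p was 0.0758. Per 1000000 intron reads Klf2 was again lowest in library 19, at 2.94, and lay between 7.15 and 31.4 elsewhere.

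Cd69 behaved otherwise. Its intron share was 39.2% in library 19 and between 50.1% and 56.2% in the other libraries. Per 1000000 intron reads library 19 was lowest at 94.3 and library 18 next at 146, whereas on exons they did not differ beyond counting error. Without library 19 the range of the Cd69 share narrowed to 6.09 percentage points, with an adjusted p of 0.0224. Reads that cross an exon junction made up 14.1% to 26.1% of Cd69 exon reads and 15.6% to 28.1% of Klf2 exon reads. For Klf13 they made up at most 2.33%.

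**Figure D4:**
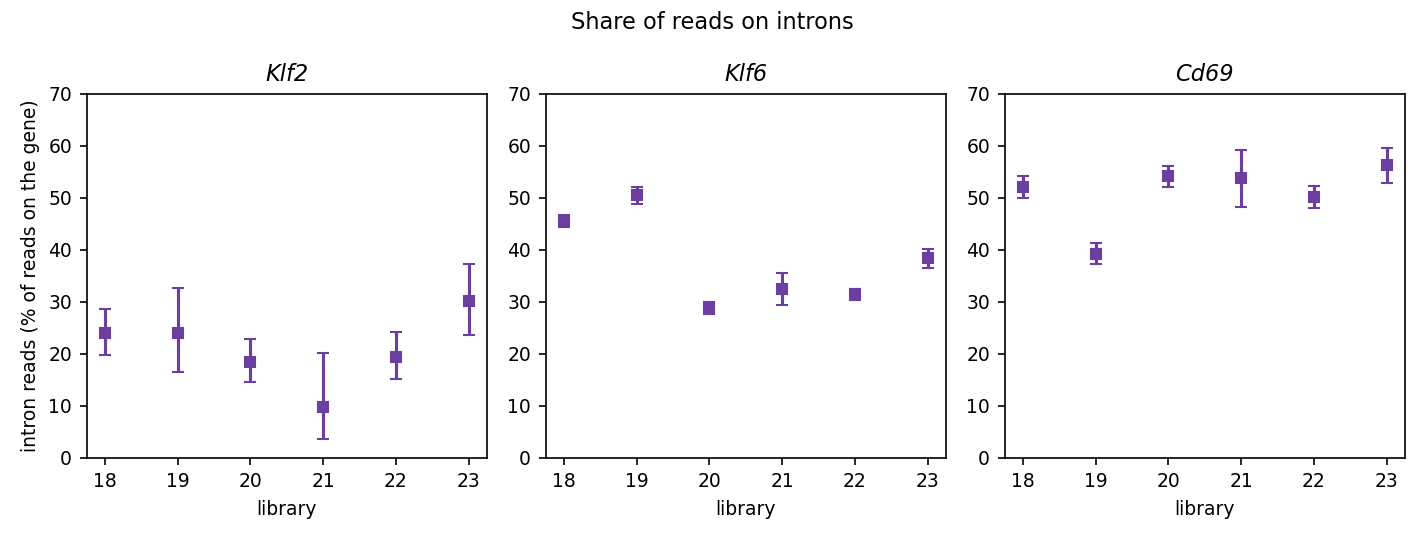
Intron reads as a percentage of all reads on Klf2, Klf6 and Cd69 in each library; points are single libraries and bars are 95% exact binomial intervals. Klf6 has its highest shares in libraries 18 and 19 (45.5% and 50.4%), and Cd69 its lowest in library 19 (39.2%).

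The genes nearest to Klf2 in pattern were searched among 6238 genes with a mean of at least 20 CPM, by the root mean square difference of centred log2(CPM + 1) values over the 6 libraries. They were Klf4 (0.29), Klf6 (0.29), Nr4a1 (0.30), Fos (0.32) and Rhob (0.34). Nr4a1 encodes an orphan nuclear receptor induced by T cell receptor signals, Fos a component of AP-1 and Rhob a small GTPase. By nearness to Klf2, Cd69 ranked 152nd at a difference of 0.80, S1pr1 771st at 0.90 and Foxo1 3595th at 1.02. The values were centred but not scaled to a common range. A gene with a small spread therefore lies far from Klf2 whatever its order of libraries. All genes share the 6 libraries and their depths, and each of these 5 was lowest in library 19, as Klf2 was.

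Early response genes, which T cells induce soon after a signal, varied widely between the same libraries. Of 17 tested genes in this list all 17 differed between libraries, against 71.6% of all tested genes. Library 19 was the lowest for 14 of the 17 and for 14% of all tested genes. All 22 listed genes summed to 4175, 2302, 7244, 6165, 6931 and 6389 CPM over libraries 18 to 23. Libraries 18 and 19 were the lowest, as for Klf2, Klf6 and Cd69. They were also the deepest, with 8020374 and 10122187 exon reads, against at most 5432206 in any other library. Fos was at 103 CPM in library 19 and 405 CPM in library 18, against 807 to 994 CPM in the other 4. Nr4a1 had the widest ratio, 17.2, with 4.42 CPM in library 19, and Fosb the next, 13.2. Tnfaip3, which restrains NF-kappaB, had 430 CPM in library 19 and a median of 1246 CPM, and the MAP kinase phosphatase gene Dusp1 had 419 and 793 CPM. The 3 tested genes not lowest in library 19 were Dusp2, Myc and Irf4, and Dusp2 was highest there at 114 CPM.

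**Figure D5:**
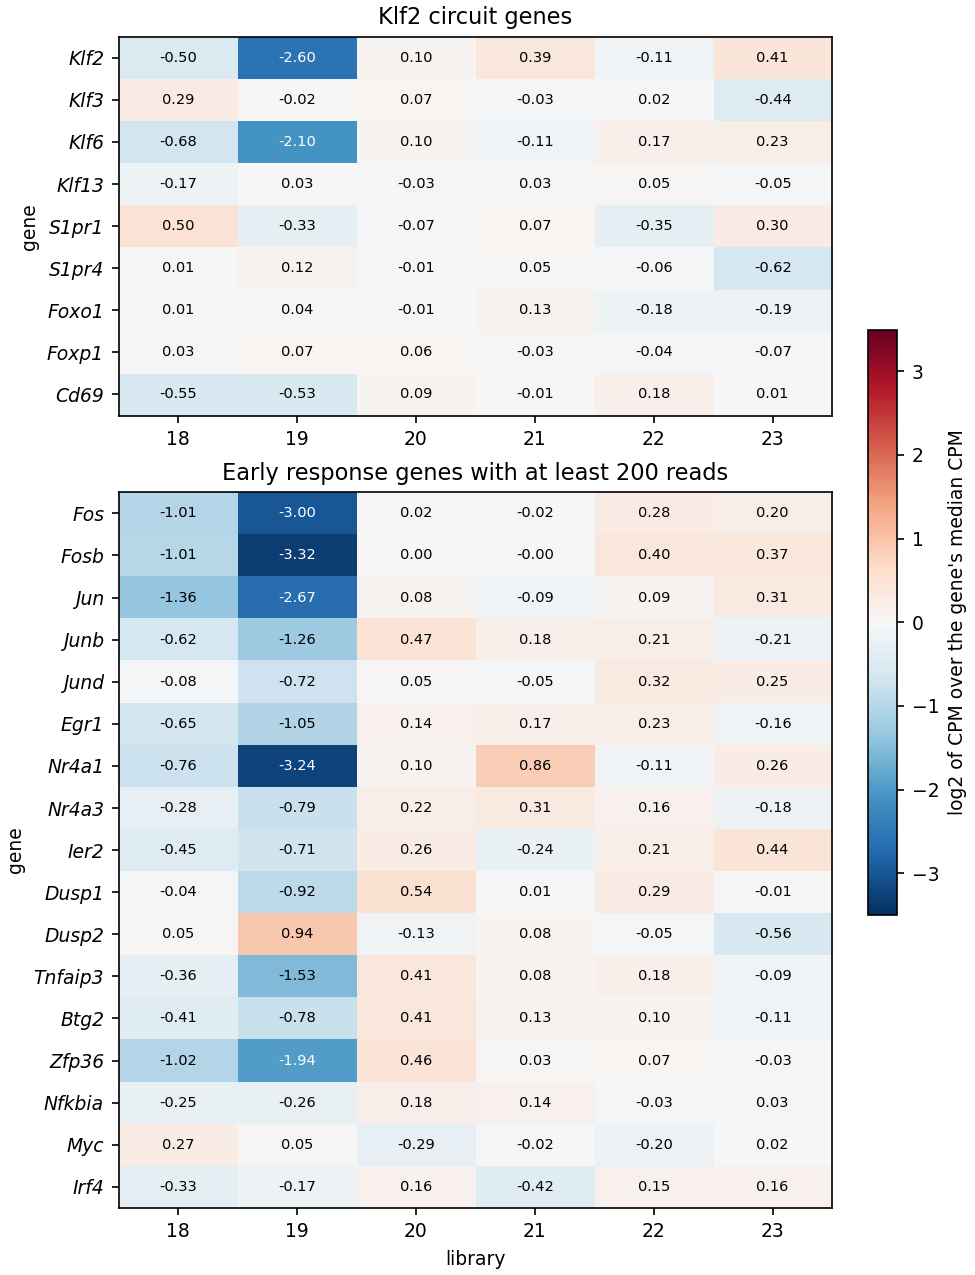
Log2 of the CPM over the gene's own median CPM in each library for the Klf2 circuit genes (top) and 17 early response genes (bottom); red is above and blue below the median. Klf2 (-2.60) and Klf6 (-2.10) are far below their medians in library 19, as are Fos, Fosb and Nr4a1.

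Transcripts of other cells differed between the same libraries. The 7 B cell markers summed to 977 and 1976 CPM in libraries 18 and 19 and to between 3899 and 5233 CPM in libraries 20 to 23. The immunoglobulin genes Igkc and Ighm made up nearly all of these sums and were lower in libraries 18 and 19 than in any other. Each of the other 5 markers was at most 22.9 CPM and overlapped between libraries 18 and 19 and the other 4, and Cd79b had 8.55 CPM in library 18 and 1.05 CPM in library 23. The 6 erythroid markers summed to 4.34 and 4.80 CPM in libraries 18 and 19 and to between 62.8 and 289 CPM in the others. Endothelial cells express Klf2 and S1pr1 strongly. Of their 5 markers Cdh5, Kdr, Tek and Emcn were each at most 3.62 CPM, and Pecam1, which T cells also express, ranged from 90.7 to 127 CPM. Of 5 myeloid markers none exceeded 3.13 CPM, the 3 platelet markers summed to at most 15.8 CPM, and the 4 neutrophil markers to at most 2.91 CPM. In bulk samples fewer cells of a type and less RNA per cell cannot be told apart. The part of these transcripts, and of depth, in the levels of Klf2, Klf6, S1pr1 and Cd69 was not tested.

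Homing receptors under Klf2 or Foxo1 varied beyond counting error in 10 of 10 tested genes, against 71.6% of all, and 4 of these were lowest in library 19, against 14% of all. Il7r, a Foxo1 target, had a median of 1076 CPM with its lowest value, 873 CPM, in library 19. The integrin gene Itgal went the other way, with its highest level of 1722 CPM in library 19 around a median of 1381 CPM. Itgb7 ranged from 199 to 308 CPM, and Rasa3 varied 2.41-fold. The list summed to between 2977 and 3493 CPM, a ratio of 1.17.

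Upstream of Klf2, 12 of 14 tested genes varied beyond counting error, against 71.6% of all tested genes. Pik3cd, which encodes a catalytic subunit of PI3K, had a small ratio of 1.21. Map3k2, a kinase upstream of ERK5, had a median of 120 CPM and a ratio of 1.53. Mef2c, which B cells also express, had 5.37 CPM in library 19 and 26.4 CPM in library 23. Sgk1, a kinase that acts on Foxo proteins, lay between 4.75 and 21.7 CPM. The list summed to 1117 to 1278 CPM, a ratio of 1.15.

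Among the genes of S1P handling and receptor coupling, 7 of 9 tested varied beyond counting error, a share near the 71.6% of all tested genes. Gnai2 and Gnai3, G protein subunits that couple S1P receptors, had ratios of 1.16 and 1.17 around medians of 669 and 249 CPM. The beta-arrestin gene Arrb2 lay between 201 and 272 CPM. Sphk2, a kinase that makes S1P, had the widest ratio, 3.05.

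Quiescence genes varied beyond counting error in 12 of 12 tested, against 71.6% of all tested genes, and 9 of the 12 were lowest in library 19, against 14% of all. Ets1, a T cell transcription factor, had 1168 CPM in library 19 and a median of 1426 CPM, and the chromatin organiser gene Satb1 had 724 and 860 CPM. Btg1, an antiproliferative gene, had a ratio of 1.13 around a median of 929 CPM. Its relative Btg2, which is also among the early response genes, had 141 CPM in library 19 and 321 CPM in library 20. Bach2, a repressor of effector genes, had 33.2 CPM in library 19 and 79.1 CPM in library 20. The list summed to 4037 CPM in library 19 and between 4474 and 4987 CPM in the others.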

How the data were processed

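The deposited table held whole exon read counts per gene, not normalized, with further whole counts of intron, uniquely matching exon and exon-junction reads, per the file headers. It also held RPKM, which the authors scaled to exon length and depth, and a deposited fraction of each gene's reads on introns, which matched intron over total reads to within 5.00e-07. The submitters' processing notes list the builds GRCm38 and mm10. For the aligner, the counter, strandedness and molecular identifiers nothing is stated in the labels or headers. A further 8 value columns per library were not used.

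The genotype comparison planned with edgeR was not run, since no library name occurs in a label. TMM factors came from edgeR 4.0.16 (R 4.3.3) on 9510 genes kept by filterByExpr. Median-of-ratios factors came from DESeq2 1.42.0. The chi-square tests used 200 reads as the minimum, 5 degrees of freedom and an adjusted p of 0.05. They were checked on data simulated with counting error only, which cannot show how other sources of spread affect the calls. Intervals of ratios between libraries are exact conditional binomial intervals, and those of intron shares are Clopper-Pearson intervals. A count of 0 allowed up to 3 reads, or 0.282 CPM in library 19 and 3.62 CPM in library 21. Reads may be PCR copies, so all intervals and tests cover counting error only, and nothing says whether samples came from separate animals. Ratios of highest to lowest take extremes and are widened by that choice.

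The 9 genes and all lists were chosen with earlier results of these data known. Besides the 9 genes, the text names from each list at most the 3 genes with the highest median CPM and the 2 with the widest ratio, and the 5 genes nearest to Klf2, S1pr1 and Cd69. Zbtb16, Cdh5, Kdr, Tek and Emcn, as defining markers, and Klf14, Dusp2, Myc and Irf4 were named after their values were seen. Of the list symbols 2 were not matched in the table, and some list genes are not reported here.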

Additional observations from a re-analysis of the deposited data

How the results depend on the processing

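The planned edgeR and DESeq2 comparison of genotypes, with its replicate block and left-out replicates, was not run. Of 105 recomputed values of the main results, 99 kept their side of the threshold or their size. For the 9 genes, a ratio that fell was counted as kept where the call stayed. Leaving out a library that is neither highest nor lowest cannot change a ratio, so part of these outcomes was fixed in advance. With no minimum of reads, 11904 genes differed between libraries, against 6473 of the 9042 genes with at least 200 reads. The setting without a minimum also tested genes with few reads. How many it tested is not reported here, so these counts cannot be compared as shares. By the authors' RPKM the ratio of highest to lowest was 1.27 for Klf13 and 1.24 for Foxp1. On total exon reads without TMM factors the Foxp1 ratio was 1.22 and passed the test, and the cause was not tested. Leaving out each library in turn, the ratio ranged from 1.88 to 8.05 for Klf2, from 1.87 to 5.02 for Klf6, from 1.07 to 1.17 for Klf13 and from 1.17 to 1.25 for Foxo1. The lowest value for Klf2 and Klf6 came without library 19. Klf13 lost its call without library 18 and Foxo1 without library 22. The intron share of Klf2 lost its call without library 23 and that of Foxp1 without library 22 (adjusted p = 0.216). Median-of-ratios factors and uniquely matching reads changed no call among the 9 genes. Of the 5 genes nearest to Klf2, 2 stayed with a minimum mean of 50 CPM, a setting that removes low genes. Of those nearest to S1pr1 none stayed without library 21, the shallowest. S1pr4 is limited by depth, with 18 reads in library 21. No paired analysis was possible because no library could be matched to a label, so the replicate numbers of the labels could not be used.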

Other observations

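The levels of Cd69 fell into separate clusters, with libraries 18 and 19 at 130 and 131 CPM and libraries 20, 21, 22 and 23 at 201, 188, 214 and 191 CPM. The genes nearest to Cd69 in pattern over the 6 libraries were Ssh2, which encodes a cofilin phosphatase, Rab11fip4, Fam46c, Nkrf and Rabgef1, at root mean square differences of 0.07 to 0.11 on the log2 scale. Ssh2 had 209, 232, 300.4, 316, 349 and 303 CPM over libraries 18 to 23. Without library 21, 2 of these 5 genes stayed among the nearest. The genes nearest to S1pr1 were Polr2e, Serpinb9, Msra, Aprt and Mrps33, and none stayed without library 21.

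Relative to each other, Foxp1 and Foxo1 had a ratio per length from 1.15 in library 21 to 1.42 in library 22 on the RPKM scale, whereas that of Klf6 to Klf2 ran from 4.93 in library 21 to 9.80 in library 19. Klf4 was below Klf2 per length in every library, at 0.397 to 0.722 times its RPKM.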
